A study of Mus musculus with 16 samples.

Results

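Mast cells and basophils are tissue and blood cells that bind immunoglobulin E and release histamine, proteases and lipid mediators. Here 7 of their genes were followed on arrays of bone-marrow myeloid progenitors: Cpa3, Ms4a2, Fcer1a, Hdc, Mcpt8, Prss34 and Cma1. The genes were chosen by name, with earlier results of these data known. All 7 were found among the 22180 genes with a probe set of their own, each with 1 such probe set. Wild-type C57BL/6 mice had taken sweetened water with 2% sucrose for 3 weeks, either plain (control) or with ampicillin, metronidazole, neomycin and vancomycin at 1 g/L each (antibiotic). No age is stated in the labels.

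Cells were sorted as Kit-positive cells that lacked lineage markers and CD105. Common myeloid progenitors (CMPs) had intermediate CD16/32 and no CD115, granulocyte-monocyte progenitors (GMPs) had high CD16/32 and no CD115, and committed monocyte progenitors (cMoPs) had CD115 and Ly6C. Sca-1 and CD49b were among the lineage markers. CD49b, the integrin alpha 2 chain, is also carried by mature mouse basophils. CMPs gave 3 arrays for each water, and GMPs and cMoPs each gave 2 control and 3 antibiotic arrays, 16 in all. Whether an array held the RNA of 1 mouse or of a pool is not in the labels, so each p-value reflects the spread of these arrays alone, which may be technical.

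Values are log2 signals of single probe sets, so they are compared between arrays and not between genes. The lower quartiles of the 16 arrays lay between 2.89 and 2.99 and their medians between 4.04 and 4.17. No detection call comes with the values, and a signal around or under those quartiles cannot be taken as above background. Of the genes of the sort gate, Fcgr3, a CD16 receptor, was higher in GMPs than in CMPs by 3.14 ± 0.15 (SE) and Csf1r, which encodes CD115, was higher in cMoPs than in GMPs by 1.95 ± 0.13. Differences are log2 values from limma over all 22180 genes, with the moderated SE and Benjamini-Hochberg adjusted p. The differences of Fcgr3 and Csf1r had adjusted p = 3.38e-10 and 2.68e-07. Ly6c2, a Ly6C gene, was higher in cMoPs than in CMPs by 2.41 ± 0.18 (adjusted p = 6.74e-08), but its difference between cMoPs and GMPs was 0.14 ± 0.19 (adjusted p = 0.817). Eng, which encodes CD105, had means of 8.50 ± 0.218 and 8.17 ± 0.367 (SD, n = 3 each) in control and antibiotic CMPs, above the array medians, although the cells were sorted as lacking CD105.

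The 7 genes fall into 3 roles. The receptor for immunoglobulin E has an alpha chain that binds the antibody (Fcer1a), a beta chain that amplifies the signal (Ms4a2) and a gamma chain shared with other Fc receptors (Fcer1g, not one of the 7). Hdc encodes histidine decarboxylase, the enzyme that makes histamine. The other 4 encode granule proteases: Cpa3 is mast cell carboxypeptidase A, Mcpt8 and Prss34 are serine proteases found mainly in mouse basophils, and Cma1 is a chymase of connective-tissue mast cells. Both lineages arise from myeloid progenitors of the bone marrow, and the transcription factor GATA2 is needed for their formation.

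The 120 bases before the annotated transcription start are shown for the 5 genes whose signal lay above the lower quartiles on all 16 arrays, since the results turn on them. The sequences come from RefSeq (GRCm38.p6), which held a promoter for all 7 genes, and are written on the strand of the gene. Capitals mark GATA motifs, meaning the letters GATA with A or T just before them and A or G just after them, on either strand.
Cpa3: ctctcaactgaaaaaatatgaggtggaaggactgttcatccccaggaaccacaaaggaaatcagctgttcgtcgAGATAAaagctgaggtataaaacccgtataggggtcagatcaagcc
Ms4a2: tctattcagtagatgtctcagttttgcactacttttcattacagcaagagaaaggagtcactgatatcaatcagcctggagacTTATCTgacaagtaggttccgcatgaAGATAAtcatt
Prss34: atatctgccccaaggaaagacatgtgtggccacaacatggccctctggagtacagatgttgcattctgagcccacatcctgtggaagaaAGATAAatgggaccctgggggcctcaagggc
Hdc: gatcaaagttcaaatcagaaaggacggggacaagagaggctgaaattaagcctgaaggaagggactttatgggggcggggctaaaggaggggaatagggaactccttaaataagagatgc
Mcpt8: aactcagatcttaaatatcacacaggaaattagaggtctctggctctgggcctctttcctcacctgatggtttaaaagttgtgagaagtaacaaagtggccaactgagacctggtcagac
The windows are chr3:20242182-20242301 (minus strand), chr19:11623720-11623839 (minus), chr17:25298274-25298393 (plus), chr2:126618679-126618798 (minus) and chr14:56085198-56085317 (minus).

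The Cpa3 window has its GATA motif at positions -46 to -41 from the start and the Prss34 window at -31 to -26. Ms4a2 has motifs at -37 to -32 and at -11 to -6. The windows of Hdc and Mcpt8 hold none of these letters. Counting Fcer1a and Cma1 too, 5 of the 7 genes had a GATA motif within 120 bases, against 12.8% of 32851 RefSeq promoters. Within 250 bases 6 of the 7 had one, against 26.5%, as the Hdc window then takes in a match at -221 to -216. The RUNX motif TGTGGT was found within 250 bases in Cpa3, Fcer1a and Mcpt8 (14% of all promoters) and the E-box letters CACGTG or CATGTG in Fcer1a and Prss34 (17.6%). The STAT motif TTCNNNGAA was found in 0 of the 7 (7.02% of all promoters). All motifs were searched on both strands. No base was shared by matches of different motifs in the 7 genes. The motifs were picked after the sequences had been seen, and a match is a string of letters, not a shown binding site.

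For 5 of the 7 genes (all but Fcer1a and Cma1) the largest difference between progenitors exceeded the largest between waters. Ms4a2, Hdc, Mcpt8 and Prss34 were highest in GMPs, and all 5 GMP arrays lay above all 11 other arrays for each of the 4. Such a peak was found in 1.3% of all genes. All cMoP arrays lay below all others for Cpa3 and Ms4a2 (1.14% of all genes). Cpa3 was high in both CMPs and GMPs. Fcer1a and Cma1 were near or below the lower quartiles nearly throughout. In sorted bulk samples, fewer cells of a type and less RNA per cell cannot be told apart.

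**Figure D1:**
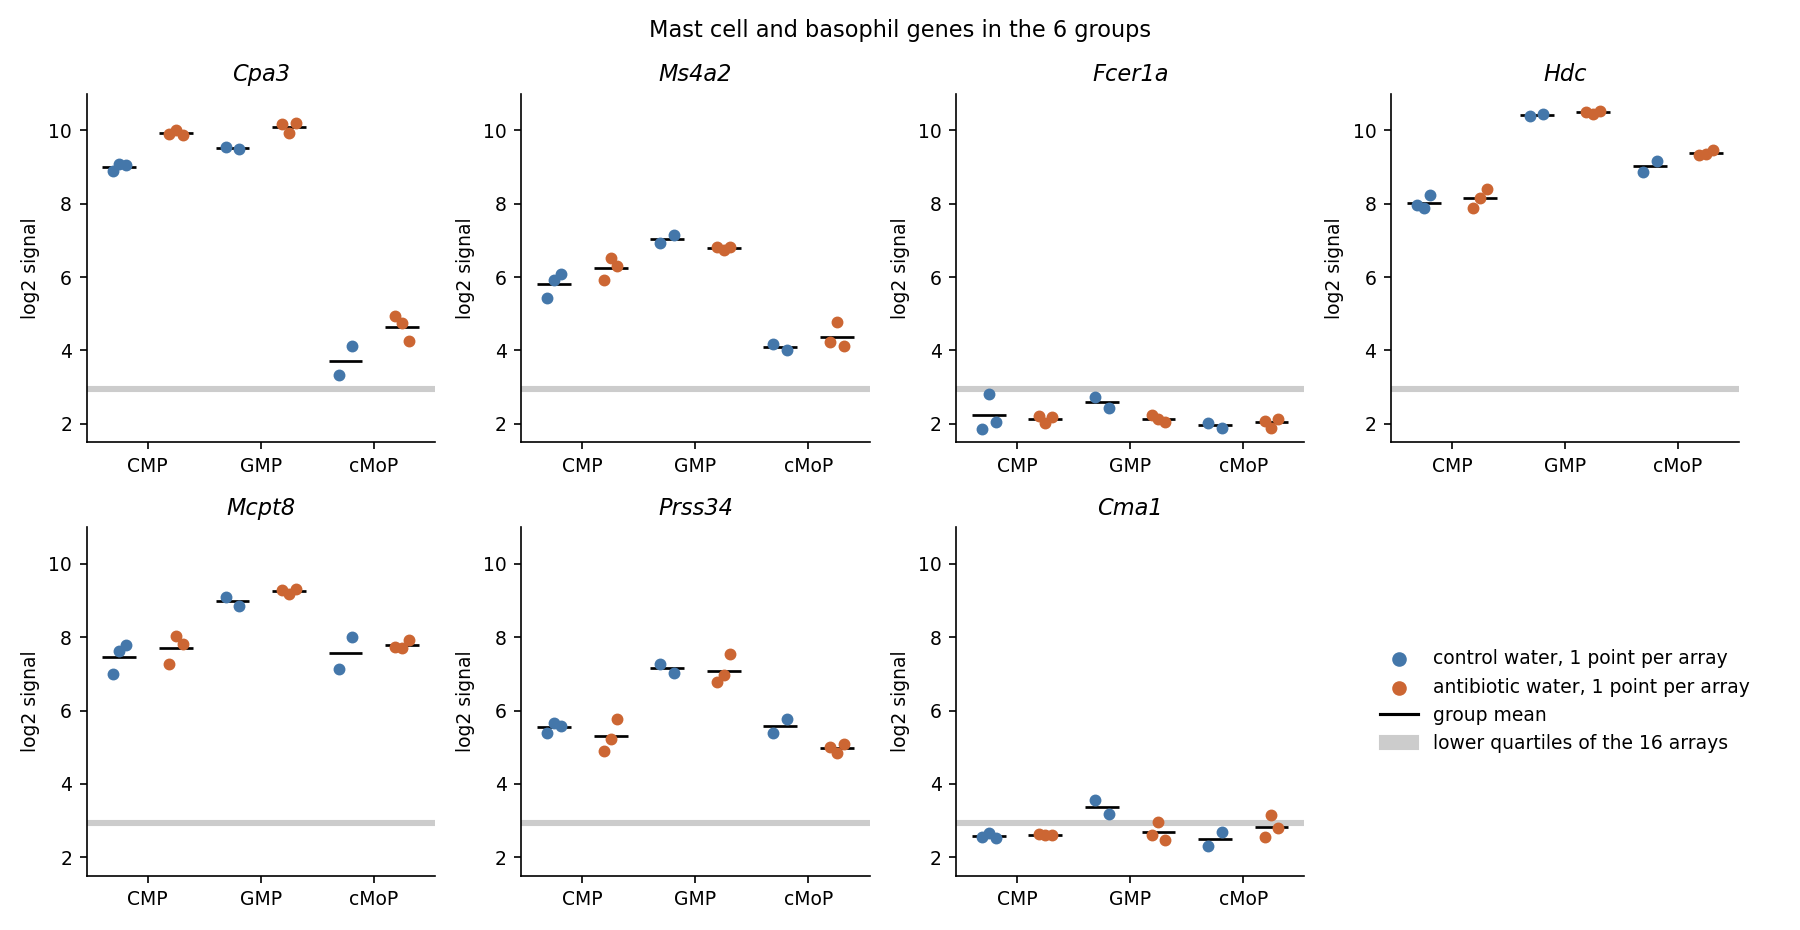
Log2 signal of the 7 genes (1 panel each) on every array, by progenitor and water, with group means as black lines and the range of the arrays' lower quartiles in grey. Cpa3 lies at 8.90 to 10.19 in CMPs and GMPs and at 3.33 to 4.94 in cMoPs, while the GMP arrays are the highest for Ms4a2, Hdc, Mcpt8 and Prss34.

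Ms4a2, the receptor's beta chain, read 5.44, 5.92 and 6.09 in control CMPs and 5.91, 6.51 and 6.29 in antibiotic CMPs. In GMPs it read 6.93 and 7.15 with control water and 6.83, 6.73 and 6.83 with antibiotics. In cMoPs the values were 4.17 and 4.01, and 4.24, 4.77 and 4.12. The 3 progenitors did not overlap, and their order was GMPs, CMPs, cMoPs. Averaged over both waters, the gene was higher in GMPs than in CMPs by 0.89 ± 0.15 (1.86-fold, adjusted p = 0.000418). From GMPs to cMoPs it fell by 2.68 ± 0.16 (6.43-fold lower, adjusted p = 6.17e-08), and against CMPs it fell by 1.79 ± 0.15 (adjusted p = 2.04e-07). Ms4a2 exceeded the median of every array on 13 of the 16 arrays, but not on the cMoP arrays reading 4.17, 4.01 and 4.12. As no detection call is given, the size of both falls is uncertain.

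Fcer1a, the chain that binds immunoglobulin E, read between 1.87 and 2.82 on the 16 arrays. All of these values are below the lower quartile of every array. Its group means ran from 1.96 ± 0.099 (SD, n = 2) in control cMoPs to 2.58 ± 0.205 (n = 2) in control GMPs. None of its differences between progenitors passed the test, with an adjusted p of 0.522 for GMPs against CMPs, 0.245 for cMoPs against GMPs and 0.415 for cMoPs against CMPs. A level above background was thus not shown for the alpha chain in any group.

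The gamma chain Fcer1g rose from CMPs to GMPs as Ms4a2 did, but also rose from GMPs to cMoPs, where Ms4a2 fell. Its group means were 9.47 ± 0.0351 in control CMPs and 9.13 ± 0.318 in antibiotic CMPs (SD, n = 3 each). For GMPs they were 10.14 ± 0.17 (n = 2) and 10.27 ± 0.145 (n = 3). For cMoPs they were 10.98 ± 0.0141 (n = 2) and 11.2 ± 0.0493 (n = 3). Fcer1g was higher in GMPs than in CMPs by 0.90 ± 0.11 (adjusted p = 1.7e-05) and higher in cMoPs than in GMPs by 0.88 ± 0.12 (adjusted p = 0.00012). This chain also serves the Fc receptors of monocytes and granulocytes.

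Hdc, the histamine-forming enzyme, read 7.97, 7.87 and 8.23 in control CMPs and 7.88, 8.14 and 8.40 in antibiotic CMPs. GMPs gave 10.40 and 10.44 with control water and 10.49, 10.45 and 10.51 with antibiotics. In cMoPs it read 8.86 and 9.17, and 9.32, 9.35 and 9.45. The order was GMPs, cMoPs, CMPs, with no overlap between the 3. GMPs exceeded CMPs by 2.37 ± 0.11, or 5.17-fold (adjusted p = 2.74e-10). The gene fell from GMPs to cMoPs by 1.26 ± 0.11 (2.39-fold lower, adjusted p = 3.11e-06), and cMoPs stayed above CMPs by 1.11 ± 0.11 (2.16-fold, adjusted p = 1.15e-06). Of the 7 genes, Hdc was the 1 called higher in cMoPs than in CMPs.

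Cpa3, the carboxypeptidase, read 8.90, 9.08 and 9.04 in control CMPs and 9.89, 10.01 and 9.86 in antibiotic CMPs. In GMPs it read 9.55 and 9.48 with control water and 10.17, 9.92 and 10.19 with antibiotics. In cMoPs the values dropped to 3.33 and 4.12, and 4.94, 4.74 and 4.27. The cMoP arrays lay far below the others, around the median probe set of an array. From GMPs to cMoPs the gene fell by 5.62 ± 0.15 (49.1-fold lower, adjusted p = 4.59e-12), and against CMPs it fell by 5.28 ± 0.14 (38.7-fold lower, adjusted p = 7.61e-13). As 2 of the 5 cMoP values do not exceed the median of every array and no detection call is given, the size of the fall is uncertain. GMPs exceeded CMPs by 0.34 ± 0.14, which did not pass (adjusted p = 0.134), and passed when only GMP and CMP arrays were fitted (adjusted p = 0.0271).

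Mcpt8, a basophil protease, read 7.0, 7.63 and 7.78 in control CMPs and 7.28, 8.02 and 7.81 in antibiotic CMPs. GMPs gave 9.10 and 8.85, and 9.29, 9.18 and 9.31. In cMoPs it read 7.12 and 8.0, and 7.74, 7.69 and 7.91. GMPs stood above both other progenitors, which overlapped each other. The differences were 1.53 ± 0.18 for GMPs over CMPs (2.89-fold, adjusted p = 1.11e-05) and -1.45 ± 0.19 for cMoPs against GMPs (2.73-fold lower, adjusted p = 0.000113). cMoPs and CMPs differed by 0.08 ± 0.18 (adjusted p = 0.813, 95% interval -0.30 to 0.46).

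Prss34, the other basophil protease, read 5.38, 5.67 and 5.59 in control CMPs and 4.89, 5.22 and 5.77 in antibiotic CMPs. GMPs gave 7.27 and 7.02, and 6.77, 6.96 and 7.53. In cMoPs it read 5.38 and 5.76, and 5.00, 4.84 and 5.10. As for Mcpt8, the GMP arrays were apart from the rest, and CMPs overlapped cMoPs. GMPs exceeded CMPs by 1.70 ± 0.16 (3.24-fold, adjusted p = 1.43e-06). From GMPs to cMoPs the gene fell by 1.84 ± 0.17 (3.58-fold lower, adjusted p = 4.67e-06), and cMoPs differed from CMPs by -0.15 ± 0.16 (adjusted p = 0.623, 95% interval -0.49 to 0.20).

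Cma1, the chymase, read 2.31 to 3.57 on the 16 arrays and lay below every lower quartile on 12 of them. The 2 control GMP arrays were the highest, at 3.57 and 3.19, and the antibiotic GMP arrays read 2.61, 2.95 and 2.48. The gene was called higher in GMPs than in CMPs (0.43 ± 0.13, adjusted p = 0.0316). That call was lost in 9 of 24 alternatives. Among them were the fits without CMP control 1 or 3, any CMP antibiotic array, GMP control 1 (difference 0.33) or GMP antibiotic 2. Its levels are not shown to be above background in most groups.

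Over the 7 genes, limma called 5 higher and 0 lower in GMPs than in CMPs at an adjusted p under 0.05, where 7.87% of all genes were called higher and 8.17% lower (16% in all). It called 5 lower and 0 higher in cMoPs than in GMPs, where 2.82% of all genes were called lower and 2.6% higher (5.42% in all). Between cMoPs and CMPs 1 was higher and 2 were lower, against 9.72% and 9.2% of all genes (18.9% in all). Arrays did not overlap for 4 genes higher in GMPs than in CMPs and 0 lower (5.49% and 5.75% of all genes). Between cMoPs and GMPs they did not overlap for 0 higher and 5 lower (3.33% and 3.17%), and between cMoPs and CMPs for 1 higher and 2 lower (6.87% and 6.33%). The median difference of the 7 was 0.89, -1.45 and -0.15 in these comparisons, and that of all genes 0.02, 0.01 and 0.04. The 3 comparisons share arrays and are not independent of each other. As the genes were chosen with earlier results of these data known, the counts are descriptions and not an independent test.

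**Figure D2:**
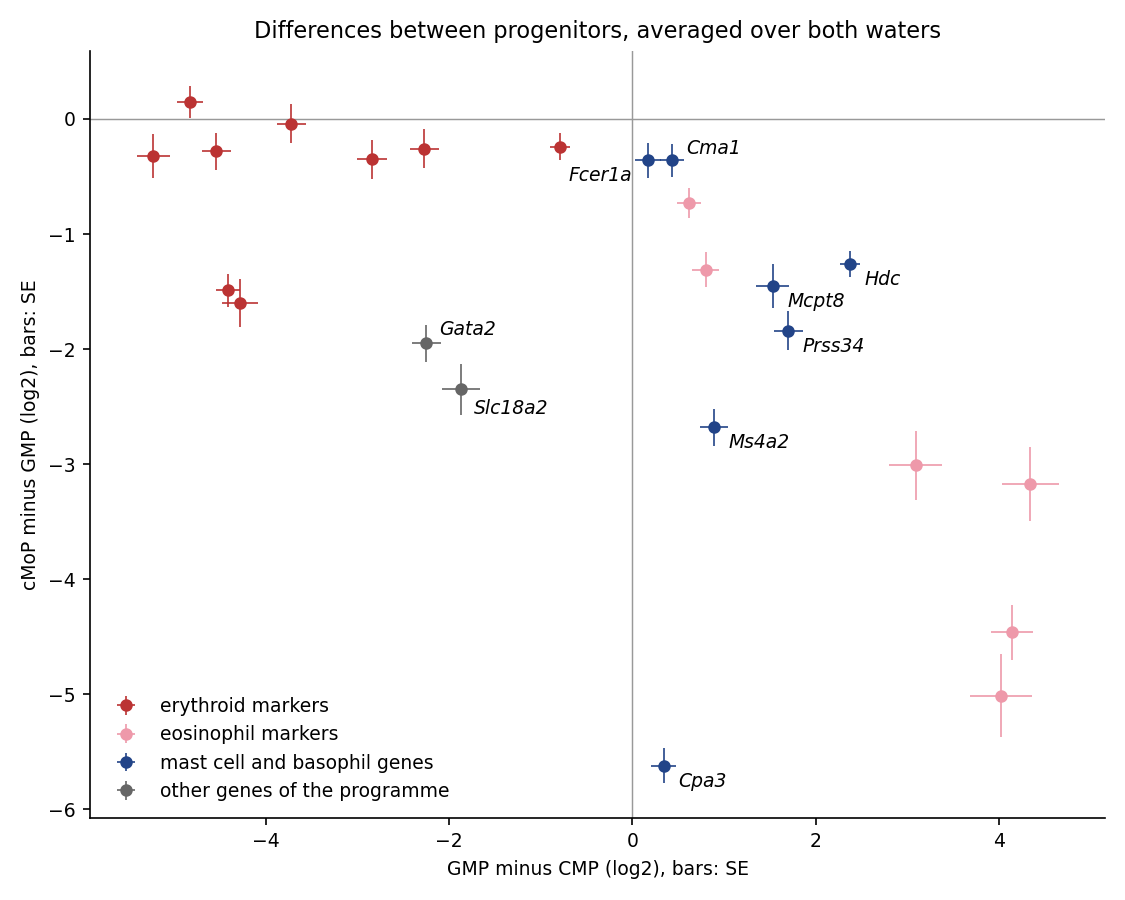
Differences in log2 signal between progenitors averaged over both waters, GMP minus CMP on the horizontal axis and cMoP minus GMP on the vertical axis, 1 point per gene with its SE. The 7 mast cell and basophil genes all lie right of 0 and below 0, from Fcer1a (0.17 and -0.36) to Hdc (2.37 and -1.26) across and down to Cpa3 (0.34 and -5.62), while Gata2 lies at -2.25 and -1.95.

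Markers of eosinophils, which are also granulocytes, moved with the GMP peak. All 6 measured of 8 listed eosinophil markers were called higher in GMPs than in CMPs and lower in cMoPs than in GMPs, with median differences of 3.55 and -3.09. Both calls were made for 1.32% of all genes. The mean of the 6 lay at 7.30 to 7.93 in control GMPs and 7.498 to 8.21 in antibiotic GMPs. It lay at 5.00 to 5.18 and 4.43 to 5.29 in control and antibiotic CMPs, and at 4.69 to 5.23 and 4.64 to 4.71 in cMoPs. Epx, eosinophil peroxidase, rose from CMPs to GMPs by 4.14 ± 0.23 (adjusted p = 2.23e-09) and Prg2, the major basic protein, by 4.02 ± 0.34 (adjusted p = 3.43e-07). At most 2 of the 6 markers lay below the lower quartiles in any group. Their part in the levels of the 7 genes was not tested. All 8 genes of a neutrophil list (Elane, Mpo, Prtn3, Ctsg, Ms4a3, Gstm1, Gfi1 and Cebpe) were also called higher in GMPs than in CMPs (median 2.10), against 7.87% of all genes. Called lower in cMoPs than in GMPs were 2 of the 8 (2.82% of all genes), the transcription factors Gfi1 (-1.52, adjusted p = 2.96e-05) and Cebpe (-2.29, adjusted p = 9.52e-07), and none of the granule proteases.

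Patterns most like each gene were named by the highest Pearson correlation of log2 signal over the 16 arrays, among 2184 genes whose group means spanned at least 1 unit. The arrays fall into 3 progenitors, so each coefficient describes mostly the progenitor pattern. Prss34 ran with the eosinophil genes Epx (r = 0.958) and Prg2 (r = 0.933), and then with Vat1 (r = 0.926). Hdc ran with the serine protease gene Prss57 (r = 0.987), Abca13 (r = 0.986) and Nkg7 (r = 0.984). Mcpt8 ran with Ypel5 (r = 0.968), Slc28a2 (r = 0.944) and Plcb2 (r = 0.938). Cpa3 ran with Acap1 (r = 0.973), the receptor gene Igf1r (r = 0.970) and the tetraspanin Cd9 (r = 0.964). The group means of Igf1r lay between 6.63 and 7.65, and those of Cpa3 between 3.73 and 10.09. Ms4a2 ran with Zfp654 (r = 0.957), Ankrd27 (r = 0.948) and Cpa3 (r = 0.937). The highest coefficients for Fcer1a and Cma1 were 0.723 and 0.709, over values not shown to be above background.

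The granule proteases also differed by their place in the genome. Cma1 and Mcpt8 stand at the ends of a run of 7 protein-coding genes of the chymase locus on chromosome 14, in the order Cma1, Cma2, Mcpt1, Mcpt2, Mcpt9, Mcpt4 and Mcpt8. Within this run, Mcpt8 alone of the 7 had mean signals well over the lower quartiles, at 7.59 in CMPs, 9.15 in GMPs and 7.69 in cMoPs. The run was cut at Cma1 and Mcpt8, and genes beyond its ends were not compared as neighbours. The granule protease genes Ctsg and Gzmb, outside the run, were also called higher in GMPs than in CMPs (1.31 ± 0.10 and 1.33 ± 0.27). The means of the other 6 ran from 2.18 (Mcpt9 in CMPs) to 2.96 (Cma1 in GMPs). Of the 5 genes between the ends, limma called 0 in GMPs against CMPs or cMoPs against GMPs, and the adjusted p closest to the threshold was 0.196, for Mcpt4. These genes are paralogs, and whether each probe set reads its own gene alone was not tested.

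**Figure D3:**
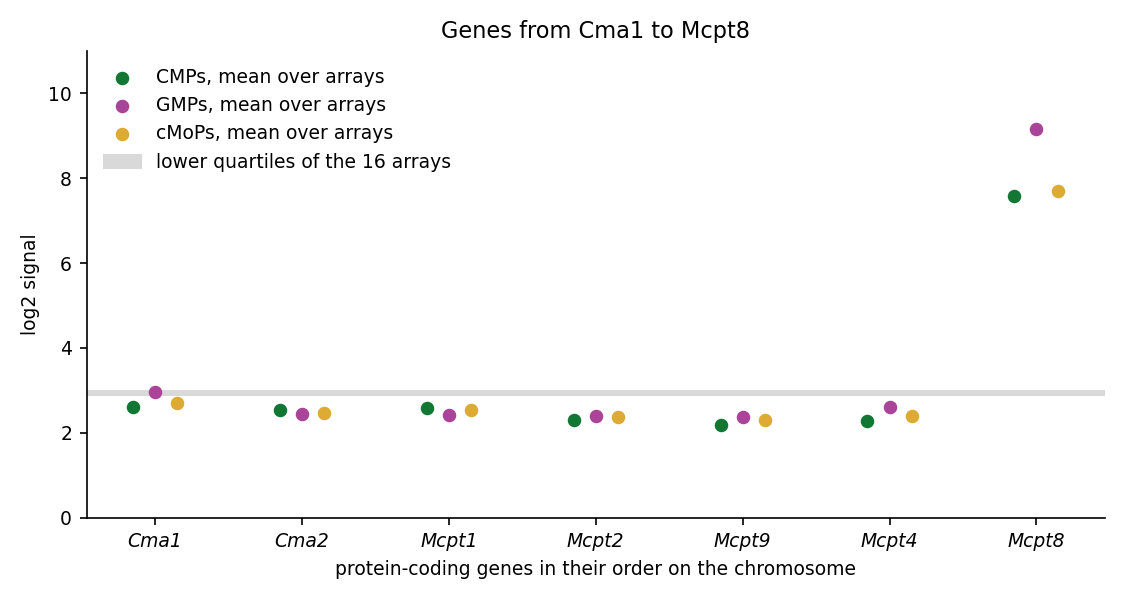
Mean log2 signal in CMPs, GMPs and cMoPs (both waters together) of the protein-coding genes from Cma1 to Mcpt8 in their chromosomal order, with the range of the arrays' lower quartiles in grey. Mcpt8 stands at 7.59, 9.15 and 7.69, and the other 6 genes at or below 2.96.

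Prss34 differed from its measured neighbours, none of which was called between GMPs and CMPs. On one side Prss28, Prss29 and the mast cell tryptase gene Tpsb2 had means over the progenitors between 3.23 and 3.58. These 3 differed between GMPs and CMPs by 0.22 ± 0.12, 0.14 ± 0.09 and 0.15 ± 0.10, and none passed (adjusted p = 0.279 to 0.401). On its other side Tsr3 had means of 6.07, 6.05 and 5.84 in CMPs, GMPs and cMoPs, and Baiap3 of 5.0, 5.21 and 5.12. Their differences between GMPs and CMPs were -0.02 ± 0.11 and 0.22 ± 0.12 (adjusted p = 0.928 and 0.245). Next to Ms4a2, the related Ms4a3, a gene of granulocyte progenitors, had means of 8.48 in CMPs, 11.62 in GMPs and 11.06 in cMoPs. It rose from CMPs to GMPs by 3.13 ± 0.22 (adjusted p = 3.56e-08), and its difference between cMoPs and GMPs was -0.57 ± 0.23 (adjusted p = 0.218), where Ms4a2 fell by 2.68. On the other side Ms4a6b, of the same family, rose from GMPs to cMoPs by 1.01 ± 0.15 (adjusted p = 0.000467). Ms4a4d and Ms4a6d, nearer to Ms4a2, differed in that step by 0.26 ± 0.14 and 0.41 ± 0.17. Neither was called (adjusted p = 0.395 and 0.253). Oosp1, a further neighbour outside the family, had the GMP peak of Ms4a2, with differences of 1.83 ± 0.17 from CMPs to GMPs (adjusted p = 1.13e-06) and -1.74 ± 0.18 from GMPs to cMoPs (adjusted p = 1.42e-05). Oosp2, between Ms4a3 and Oosp1, was called higher in GMPs than in CMPs (0.78 ± 0.24, adjusted p = 0.038). Its difference between cMoPs and GMPs was not called (-0.57 ± 0.25, adjusted p = 0.279).

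With antibiotic water, Cpa3 was the 1 gene of the 7 called over the 3 progenitors. Averaged with equal weight over CMPs, GMPs and cMoPs, it rose by 0.81 ± 0.12, or 1.75-fold (adjusted p = 0.0143), and the call at an adjusted p under 0.2 follows the rate the study states. Of all genes, 0.271% were called higher and 0.243% lower in this comparison (0.514% in all), and of the 7 genes 1 was higher and 0 were lower. At an unadjusted p under 0.05 there were 2 of the 7, against 9.54% of all genes. As listed above, every antibiotic array read higher than every control array of its progenitor, which held in each of the 3 progenitors for 0.153% of all genes (and in the lower direction for 0.252%). The group means were 9.01 ± 0.0945 (SD, n = 3) and 9.92 ± 0.0794 (n = 3) in CMPs with control and antibiotic water. For GMPs they were 9.52 ± 0.0495 (n = 2) and 10.09 ± 0.15 (n = 3). For cMoPs they were 3.73 ± 0.559 (n = 2) and 4.65 ± 0.344 (n = 3). The cMoP controls, at 3.33 and 4.12, did not exceed the median of every array. As no detection call is given, the size of the cMoP rise is uncertain.

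Within CMPs alone the Cpa3 difference was 0.91 ± 0.19 (1.88-fold, adjusted p = 0.231). Within GMPs it was 0.58 ± 0.21 (1.49-fold, adjusted p = 0.557), and within cMoPs 0.93 ± 0.21 (1.9-fold, adjusted p = 0.301). None passed over all genes, though the CMP difference passed without either cMoP control (adjusted p = 0.0664 to 0.424 over 25 alternatives). The interaction test of limma, which asks whether the effect of water differs between progenitors, gave an adjusted p of 0.953 (unadjusted p = 0.435). The cMoP difference depended on single controls: it was 0.53 without cMoP control 1 (adjusted p = 0.998) and 1.32 without cMoP control 2 (adjusted p = 0.0631). The difference over the progenitors was called in 24 of 24 alternatives, which include leaving out each array, at 0.67 to 0.94 with an adjusted p of 0.00233 to 0.0897.

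**Figure D4:**
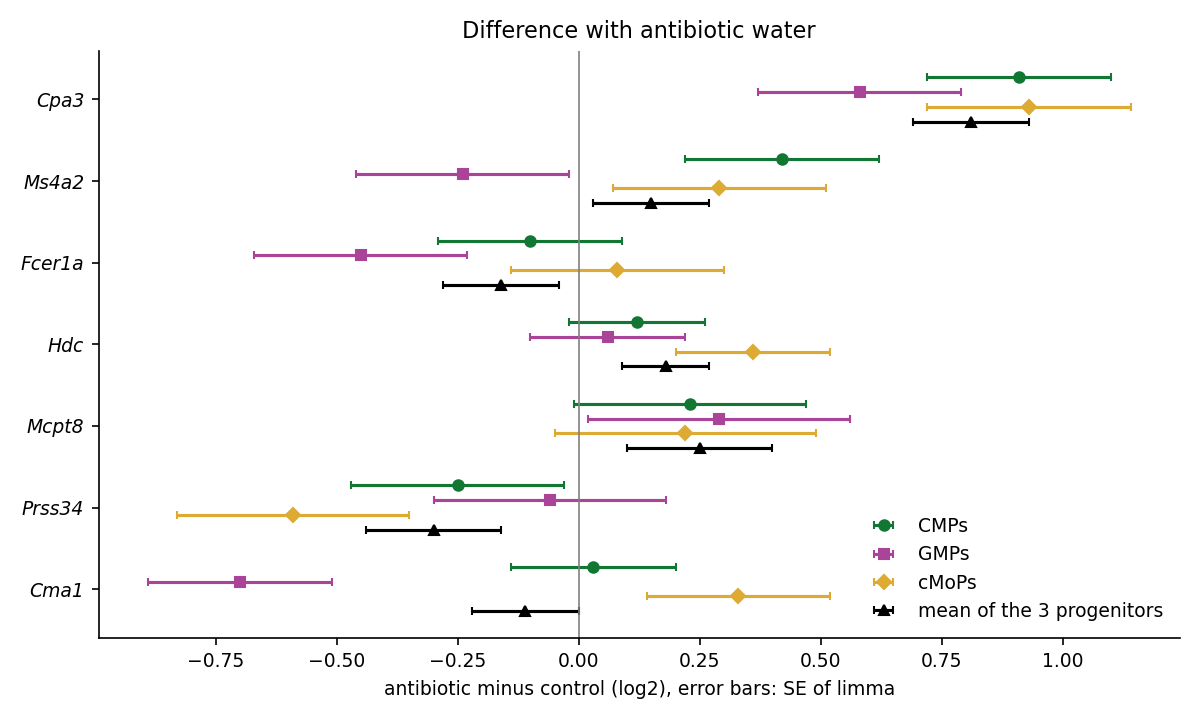
Antibiotic minus control log2 signal of the 7 genes in CMPs, GMPs and cMoPs and as the mean of the 3 differences, with the SE of limma as error bars. Cpa3 lies at 0.58 to 0.93 in the 3 progenitors, and Prss34, Fcer1a and Cma1 have a mean below 0 (-0.30, -0.16 and -0.11).

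Some markers of monocytes and of red cells were called with antibiotics beside Cpa3. Of 9 monocyte markers 3 were called lower and 0 higher over the progenitors (median -0.37), against 0.243% and 0.271% of all genes. They were Ccr2 (-0.47 ± 0.11, adjusted p = 0.18), F13a1 (-0.43 ± 0.10, adjusted p = 0.183) and Cx3cr1 (-0.49 ± 0.12, adjusted p = 0.188). In cMoPs the median of the 9 was 0.05, with 5 above 0 and 4 below. Within CMPs F13a1 was called lower (-1.15 ± 0.17, adjusted p = 0.0301), and the mean of the 9 lay at 6.97 to 7.57 with antibiotics and at 7.70 to 7.83 with control water. In GMPs that mean lay at 7.98 to 8.42 and 8.40 to 8.62, and in cMoPs at 9.93 to 10.1 and 9.89 to 9.91. Of 8 stem cell markers 1 was called lower and 0 higher over the progenitors (0.243% and 0.271% of all genes), Hoxa9 (-0.56 ± 0.13, adjusted p = 0.154). In GMPs the mean of the 9 measured of 12 listed erythroid markers lay at 5.92 to 6.08 with antibiotics and at 5.54 to 5.61 with control water, without overlap. In CMPs it lay at 9.41 to 9.58 and 9.33 to 9.46, and in cMoPs at 5.23 to 5.45 and 5.22 to 5.25, and both pairs of ranges overlapped. Over the progenitors 1 of the 9 was called higher and 0 lower (0.271% and 0.243% of all genes): Car1, an erythroid carbonic anhydrase gene (0.86 ± 0.11, adjusted p = 0.00517). The median of the 9 was 0.08, with 6 above 0 and 3 below. Within CMPs, GMPs and cMoPs that median was 0.01, 0.33 and -0.03. Car1 was also the 1 marker called within GMPs, at 1.78 ± 0.20 (3.44-fold, adjusted p = 0.00308), where 0.0496% of all genes were called higher. Group means of the 9 markers were below the lower quartiles in 0 groups. Megakaryocyte markers were called in 0 of 6 by limma, with list means in GMPs of 5.17 to 5.31 with antibiotics and 4.89 to 5.12 with control water. The part of these cells in the Cpa3 difference was not tested. Eosinophil markers, which were higher in GMPs than in CMPs, had a median antibiotic difference of -0.11 over the progenitors. Their signs differed by progenitor. For GMPs the median was 0.33, with 5 of the 6 markers above 0. It was -0.22 for CMPs and -0.40 for cMoPs, with 1 of the 6 above 0 each time. Limma called 0 of the 6, both over the progenitors and within each. Their part in the Cpa3 difference was not tested either.

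The other granule and mediator genes gave no call with antibiotics. Hdc differed over the progenitors by 0.18 ± 0.09 (adjusted p = 0.554) and Mcpt8 by 0.25 ± 0.15 (adjusted p = 0.634). Prss34 had the opposite sign, at -0.30 ± 0.14 (unadjusted p = 0.0436, adjusted p = 0.508), made up of -0.25 ± 0.22 for CMPs, -0.06 ± 0.24 for GMPs and -0.59 ± 0.24 for cMoPs. In cMoPs each antibiotic array of Prss34 (4.84 to 5.10) lay below both controls (5.38 and 5.76). Cma1 differed by -0.11 ± 0.11 over the progenitors (adjusted p = 0.779) and by -0.70 ± 0.19 in GMPs (unadjusted p = 0.00232, adjusted p = 0.433), where the means were 3.38 ± 0.269 (SD, n = 2) for control and 2.68 ± 0.243 (n = 3) for antibiotic water. The latter mean lies below the lower quartiles. Of the receptor chains, Ms4a2 differed by 0.15 ± 0.12 (adjusted p = 0.726), made up of 0.42 ± 0.20 for CMPs, -0.24 ± 0.22 for GMPs and 0.29 ± 0.22 for cMoPs. Fcer1a differed by -0.16 ± 0.12 (adjusted p = 0.711) at its low level.

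Counted over the 7 genes, limma called 0 within each single progenitor. At an unadjusted p under 0.05 there were 1 for CMPs, 2 for GMPs and 3 for cMoPs (7.24%, 7.49% and 6.2% of all genes). The analysis of variance without moderated variance also called 0 in each. Of all genes, 0.0406% were called for CMPs (0.0225% higher, 0.018% lower), 0.0721% for GMPs (0.0496% and 0.0225%) and 0.131% for cMoPs (0.0902% and 0.0406%). Antibiotic and control arrays did not overlap for 1 gene higher and 0 lower in CMPs (5.21% and 6.36% of all genes), for 3 higher and 3 lower in GMPs (10.4% and 12.6%) and for 2 higher and 1 lower in cMoPs (9.59% and 11.4%). Those in GMPs were Cpa3, Hdc and Mcpt8 on the higher side and Ms4a2, Fcer1a and Cma1 on the lower, and those in cMoPs were Cpa3 and Hdc against Prss34. Limma called 0 of the 7 in the interaction of water and progenitor, where it called 0.00451% of all genes. Cma1 had the smallest unadjusted p there, 0.00478 (adjusted p = 0.694), and was the 1 of the 7 under 0.05 (5.79% of all genes). The analysis of variance again called 0.

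Further genes of the mast cell and basophil programme were taken from 6 lists with 72 entries, 67 of which were measured. These lists too were chosen with earlier results of these data known. Between GMPs and CMPs 17 of the 67 were called higher and 18 lower, and between cMoPs and GMPs 6 were called higher and 12 lower. Between cMoPs and CMPs the counts were 18 and 20. Of all genes 7.87% and 8.17%, 2.6% and 2.82%, and 9.72% and 9.2% were called higher and lower in these comparisons. Medians over the 67 were 0.04, -0.04 and 0.03. With antibiotics over the progenitors limma called 0 of the 67 (median 0.01, and -0.01 over all genes). Within progenitors it called 1, higher in cMoPs, where 0.0902% of all genes were called higher.

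Of 15 transcription factors of the lineage, 4 were called higher and 7 lower in GMPs than in CMPs (7.87% and 8.17% of all genes). Gata2 read 9.30 to 9.69 in CMPs, 7.01 to 7.51 in GMPs and 4.84 to 5.86 in cMoPs, with no overlap. It fell from CMPs to GMPs by 2.25 ± 0.16 (4.75-fold lower, adjusted p = 3.16e-08) and again to cMoPs by 1.95 ± 0.16 (3.86-fold lower, adjusted p = 1.58e-06). Thus Gata2 was highest in CMPs, where Hdc was lowest, and at its lowest in cMoPs, where Cpa3 and Ms4a2 were lowest. Gata1, its relative of red cells, megakaryocytes and mast cells, fell from CMPs to GMPs by 2.98 ± 0.12 (adjusted p = 9.62e-11) and Tal1, their partner, by 1.59 ± 0.16 (adjusted p = 2.53e-06). Ikzf2, an Ikaros family factor, fell most from GMPs to cMoPs within the list (2.10 ± 0.15, adjusted p = 2.68e-07). Irf8, which drives monocyte fate, rose in that step by 1.98 ± 0.19 (adjusted p = 5.22e-06).

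The amine transporter gene Slc18a2, which loads histamine into granules, did not follow Hdc. It read 8.55 to 9.25 in CMPs, 6.70 to 7.26 in GMPs and 3.62 to 5.06 in cMoPs. It was 3.65-fold lower in GMPs than in CMPs (-1.87 ± 0.21, adjusted p = 8.45e-06) and 5.09-fold lower in cMoPs than in GMPs (-2.35 ± 0.22, adjusted p = 5.08e-06), while Hdc peaked in GMPs. Hnmt, the methyltransferase that breaks histamine down, ran with Hdc: it rose from CMPs to GMPs by 1.70 ± 0.11 (adjusted p = 1.02e-08) and was lower in cMoPs by 0.87 ± 0.11 (-0.87, adjusted p = 0.000117). Among lipid mediator genes Alox5, the 5-lipoxygenase, fell from GMPs to cMoPs by 2.28 ± 0.30 (adjusted p = 0.000136). Its partner Alox5ap rose from CMPs to GMPs by 0.68 ± 0.09 (adjusted p = 5.36e-05) and differed by -0.02 ± 0.10 between cMoPs and GMPs (adjusted p = 0.963).

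Of 11 other granule genes, 3 were called higher and 1 lower in GMPs than in CMPs, against 7.87% and 8.17% of all genes. Gzmb, granzyme B, rose by 1.33 ± 0.27 (adjusted p = 0.00228) and fell again in cMoPs by 1.51 ± 0.28 (adjusted p = 0.00363), with single arrays between 2.78 and 5.58. Ctsg, cathepsin G, rose by 1.31 ± 0.10 (adjusted p = 7.9e-08), and Srgn, the proteoglycan that holds granule contents, by 0.80 ± 0.08 (adjusted p = 1.33e-06). Ndst2, which sulfates heparin, fell by 0.41 ± 0.10 (adjusted p = 0.0113). The mast cell tryptase genes Tpsb2 and Tpsab1 had group means of 3.21 to 3.61 and 2.99 to 3.17, near the lower quartiles.

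**Figure D5:**
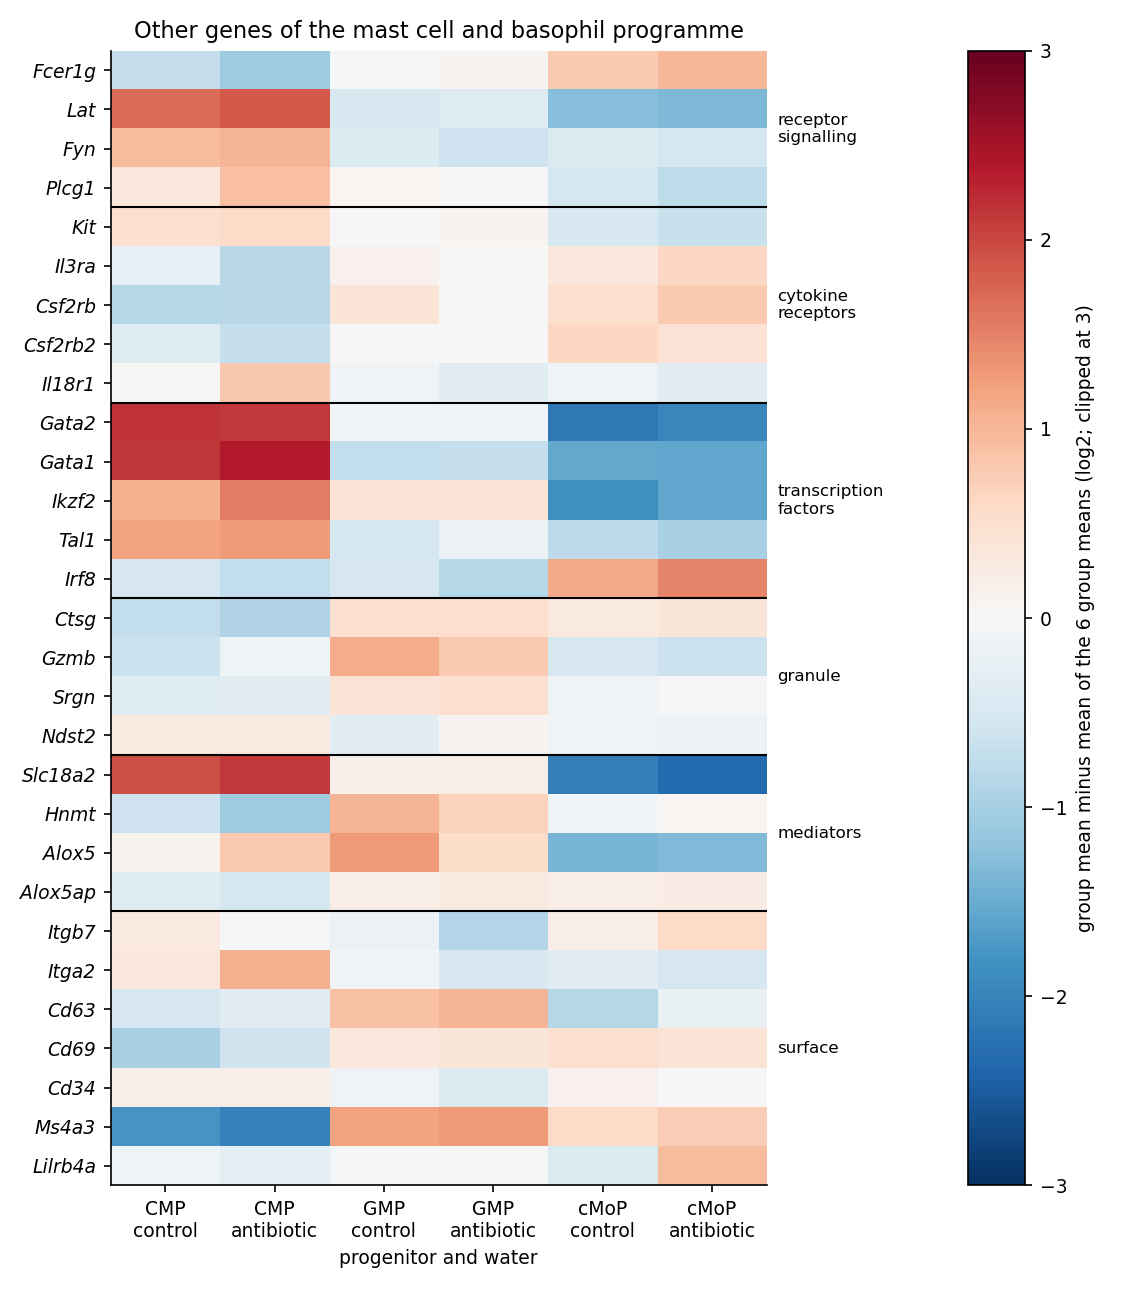
Group means of 29 further genes of the programme (rows, by list) in the 6 groups of progenitor and water (columns), each minus the mean of the gene's 6 group means, in log2 from blue (lower) to red (higher) and clipped at 3. Gata2, Gata1 and Slc18a2 are highest in CMPs and lowest in cMoPs, and Ms4a3, Cd63 and Gzmb are highest in GMPs.

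Signalling genes of the receptor went both ways, with 3 of 10 called higher and 3 lower in GMPs than in CMPs (7.87% and 8.17% of all genes). The adaptor Lat fell by 2.18 ± 0.17 (adjusted p = 1.01e-07) and then by 0.89 ± 0.18 in cMoPs (adjusted p = 0.0055), and the kinase Fyn fell by 1.5 ± 0.23 (adjusted p = 0.000174). Plcg1, a phospholipase, was lower in GMPs by 0.57 ± 0.16 (-0.57, adjusted p = 0.0208). Of 8 cytokine receptor genes 2 were called higher and 3 lower in that comparison, against the same shares of all genes. Csf2rb, the beta chain shared by the receptors for interleukin 3 and interleukin 5, rose by 1.05 ± 0.13 (adjusted p = 2.75e-05). Il3ra, the interleukin 3 receptor's alpha chain, rose by 0.60 ± 0.13 (adjusted p = 0.00371), and Csf2rb2, a relative of Csf2rb that serves interleukin 3 alone, was higher in cMoPs than in CMPs by 1.07 ± 0.26 (adjusted p = 0.00777). Kit, the receptor for stem cell factor and part of the sort gate, fell by 0.48 ± 0.09 (adjusted p = 0.000799) and again in cMoPs by 0.62 ± 0.09 (adjusted p = 0.000343). Il18r1, an interleukin 18 receptor chain, fell by 0.62 ± 0.13 (adjusted p = 0.00268).

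Of 13 surface genes 3 were called higher and 3 lower in GMPs than in CMPs, where 7.87% and 8.17% of all genes were. Cd63, a tetraspanin of granule membranes, had a GMP peak as Mcpt8 and Prss34 did. It rose by 1.35 ± 0.10 (adjusted p = 9.34e-08) and fell in cMoPs by 1.48 ± 0.11 (adjusted p = 4.57e-07). Cd69, an activation antigen, rose by 1.12 ± 0.16 (adjusted p = 7.31e-05). Itga2, which encodes the CD49b of the lineage gate, was lower in GMPs by 0.98 ± 0.21 (-0.98, adjusted p = 0.00364). Itgb7, an integrin of mast cell progenitors, fell by 0.66 ± 0.13 (adjusted p = 0.00172) and rose in cMoPs by 0.93 ± 0.14 (adjusted p = 0.000364), and Cd34 fell by 0.47 ± 0.08 (adjusted p = 0.00058) and rose by 0.33 ± 0.09 (adjusted p = 0.033).

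Lilrb4a, an inhibitory receptor of mast cells and myeloid cells, was the 1 programme gene called with antibiotics. In cMoPs it read 4.90 and 5.67 with control water and 6.89, 6.53 and 6.61 with antibiotics, without overlap. The difference was 1.39 ± 0.27, or 2.62-fold (adjusted p = 0.14). The call was lost in 9 of 25 alternatives. Among them were the fits without cMoP control 1 (difference 1.01), without CMP antibiotic 2, without any 1 of the cMoP antibiotic arrays (1.29 to 1.46) and with cMoP arrays only. The gene has a close paralog, and whether its probe set reads it alone was not tested.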

How the data were processed

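RNA of sorted progenitors (2.6 ng per sample) was amplified and hybridised to 1-colour arrays, per the labels' protocols. The deposited table holds the authors' log2 signals. Per the submitters' processing notes, Transcriptome Analysis Console and Partek were used. How signals were summarised and normalized, and with which versions, is not stated there. Of 41345 probe sets, the 23521 with 1 gene symbol were used, brightest per gene (22180 genes), with no dim filter. The number of arrays limits the precision.

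limma 3.58.1 (R 4.3.3) was fitted with a mean for each of 6 groups, giving 10 residual degrees of freedom, and two-sided tests. Water effects were called at an adjusted p under 0.2, as in the study's stated 2-way analysis of variance, and progenitor differences under 0.05. Genes and lists were chosen with earlier results of these data known. Named list genes were those called for water, and per list and progenitor comparison the 3 called with the largest difference. Alternatives covered probe sets, genes tested, dim genes, normalization, variances, samples, blocks and single arrays.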

Additional observations from a re-analysis of the deposited data

Results flagged for a closer look

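For 6 of the 67 measured programme genes, antibiotic and control arrays did not overlap in 2 or more progenitors and the differences had opposite signs. Opposite signs drew attention to them, not a test of these pairs of differences. In the interaction test over all 3 progenitors none of the 6 was called (adjusted p = 0.69 to 0.877). Fcer1g differed by -0.34 in CMPs and 0.22 in cMoPs. Csf2rb differed by -0.39 in GMPs and 0.31 in cMoPs, and Il18r1 by 0.78 in CMPs and -0.22 in GMPs. Il3ra differed by -0.57 in CMPs and 0.32 in cMoPs. Cd200r3, a receptor gene of basophils and mast cells with group means of 2.89 to 3.39, near the lower quartiles, differed by 0.51 in CMPs and -0.34 in cMoPs. For Itgb7 the differences were -0.32 for CMPs, -0.69 for GMPs and 0.38 for cMoPs. Non-overlap is common with 2 or 3 arrays a group: 10.4% of all genes were higher and 12.6% lower in GMPs without overlap. The shares were 5.21% and 6.36% in CMPs, and 9.59% and 11.4% in cMoPs. How many of all genes had opposite signs in 2 or more progenitors was not counted, so the 6 are not shown to exceed that share. Groups of 2 or 3 arrays are too small for a test of single outlying samples.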

How the results depend on the processing

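The number of the 7 genes called over the 3 progenitors with antibiotics (1, Cpa3) and between progenitors (5, 5 and 3) stayed within 1.5 times under every alternative tried. In CMPs the number called with antibiotics was 0 and became 1 with only genes above the median gene, 1 with trend and robust variances, and 0 to 1 with single arrays left out. In cMoPs it was 0 and became 1 with trend and robust variances and 0 to 1 with single arrays left out. Each of these calls was Cpa3. Signs of differences that were not called turned in 11 cases. With the replicate block, Hdc in GMPs with antibiotics became -0.01. With single arrays left out, the antibiotic differences ranged from -0.29 (without CMP control 1) to 0.19 (CMP control 2) for Fcer1a in CMPs, -0.01 (CMP antibiotic 3) to 0.25 for Hdc in CMPs, -0.28 to 0.10 (GMP antibiotic 1; 0.07 without GMP control 1) for Prss34 in GMPs, and -0.22 (cMoP control 1) to 0.66 for Mcpt8 in cMoPs. Between cMoPs and CMPs, Mcpt8 ranged from -0.14 (cMoP control 2; -0.03 and -0.02 without CMP control 1 and CMP antibiotic 1) to 0.30, and Cma1 from -0.03 (cMoP control 2; -0.02 without cMoP antibiotic 2) to 0.16. Counts over all genes moved more: the 114 called over the progenitors became 41 to 269 with single arrays left out and 59 to 353 otherwise, the 9 in CMPs 1 to 61, the 16 in GMPs 0 to 42, the 29 in cMoPs 2 to 226 and the 1 in the interaction 1 to 24. Same-numbered arrays did not deviate together (r = -0.027 to 0.026 over 7 pairs across waters, and -0.049 to 0.104 over 15 pairs across progenitors), so the numbers were not taken to pair samples. With the replicate block, Cpa3 over the progenitors was 0.83 (adjusted p = 0.0291), and with water and number as a random block 0.81 (adjusted p = 0.016). The cause of these changes was not tested.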
